A study of Mus musculus with 35 samples.

Results

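E2f7 loss in the mouse liver was measured at 2 months of age by setting 4 arrays of liver RNA from E2f7 knockout mice against 3 arrays from wild-type mice. These 7 arrays were chosen by their labels from the 35 arrays of a study of E2F loss in liver. The study's other 2-month wild-type arrays, replicates 4 and 5, were left out of the control because their values had been normalized in another run. The knockout carried the genotype Albumin-Cre E2f7loxp/loxp on the FVB background, in which the albumin promoter drives Cre recombinase in hepatocytes. The labels do not say which other liver cells keep the gene. The control was wild type on the FVB background. Its labels name neither Cre nor a loxP-flanked allele, so effects of the deletion, the Cre transgene and the loxP-flanked allele cannot be told apart. The labels number the arrays without saying that each came from its own mouse. The spread behind the p-values, pooled over the groups of all 35 arrays, may therefore be technical. Deletion was checked by PCR genotyping of each sample, per the study's design text. For comparison there were 4 arrays labelled Albumin-Cre E2f8loxp/loxp and 4 labelled Albumin-Cre E2f7loxp/loxp E2f8loxp/loxp, both FVB and 2 months old. There were also the E2f7 knockout (4 arrays) and wild type (3 arrays) at 3 weeks, also FVB.

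E2F7 and its close relative E2F8 are atypical members of the E2F family. They bind DNA without the dimerization partner that classical E2Fs need, and they are known as repressors of genes for DNA replication and mitosis. In the liver they are known for their part in the process by which hepatocytes become polyploid after weaning, when cells replicate DNA and skip cytokinesis. Hepatocytes also make most plasma proteins, and folding these in the endoplasmic reticulum depends on chaperones that the unfolded protein response controls.

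The values were log2 signals after RMA (robust multi-array averaging), so a difference of 1 is a doubling of signal. For 18193 genes, each represented by 1 probe set, differences were tested with limma over all arrays, and a gene was called where its p, adjusted by Benjamini-Hochberg, fell under 0.05. Precision was limited by the number of arrays, 4 against 3, and the median standard error of a difference was 0.10. The 7 arrays correlated with each other across genes at 0.993 to 0.998. The mean of 26 hepatocyte marker genes lay at 13.01 to 13.18 in the knockout and 13.12 to 13.23 in wild type. The 3′ minus 5′ signal of the Gapdh control probes, a sign of RNA quality, was 1.72 to 1.83 in the knockout and 1.62 to 1.87 in wild type.

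E2f7 loss went with few differences at 2 months. A single gene passed the test, Yae1d1, which was higher in the knockout. This is 0.00550% of the genes tested. The count rested on single arrays: it was 39 without wild-type replicate 3 (16 higher, 23 lower), 2 without knockout replicate 3 or 4, and 0 without wild-type replicate 1 or 2 or knockout replicate 1 or 2. At an unadjusted p under 0.05, 686 genes (3.77%) were higher and 593 (3.26%) lower in the knockout. This balance turned when each array was centred on its median (2.70% higher, 3.95% lower) and without the dimmest 40% of genes (4.51% and 4.97%). With only the arrays of this run in the fit the shares were 6.34% and 4.72%. Of all genes, whatever their p, 59.2% were higher and 40.8% lower, and with the arrays centred on their medians 51.7% and 48.3%. Counts of higher and lower members of a list are to be read against these shares. Differences were within 0.5 of 0 for 98.6% of genes, 10 genes were higher and 16 lower by over 1, and the median difference was 0.02. Every knockout array lay above every wild-type array for 1000 genes (5.50%) and below every one for 760 genes (4.18%).

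**Figure D1:**
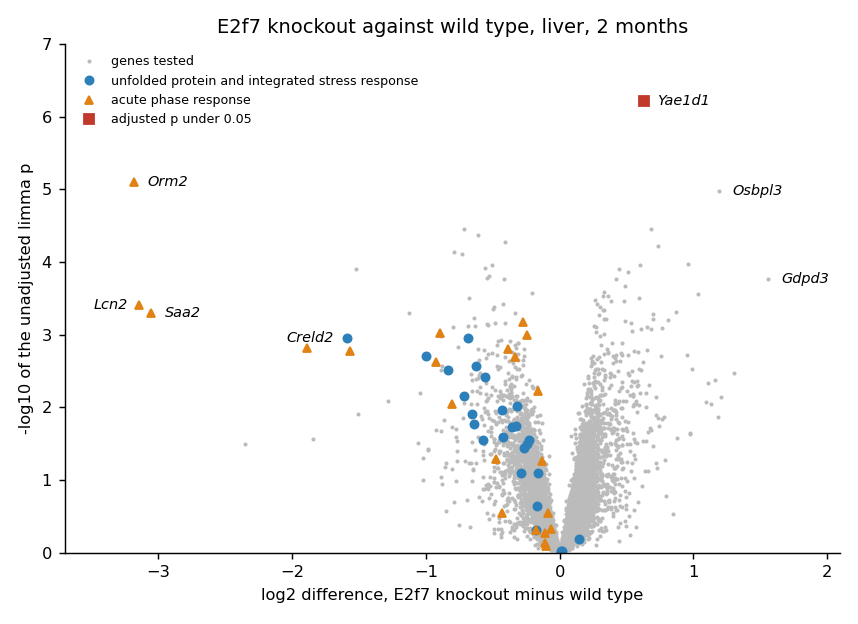
Log2 difference between the E2f7 knockout (4 arrays) and wild type (3 arrays) on the x axis against the −log10 of the unadjusted limma p on the y axis, 1 point per gene. Yae1d1 alone is past an adjusted p of 0.05, genes of the unfolded protein response lie mostly to the left of 0, and the far left is held by Orm2, Lcn2 and Saa2 of the acute phase response.

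The E2F genes themselves did not pass the test. E2f7 was measured by 1 probe set, at 5.44, 5.22, 5.89 and 5.17 in the knockout arrays and 5.41, 5.63 and 5.78 in wild type, with overlapping groups and a difference of -0.17 (SE 0.15, limma adjusted p = 0.91). Its signal was low in all 7 arrays, and the sources used here do not say whether its probes lie in the deleted part of the gene, so this value is no check of the deletion. E2f8 read 7.13, 7.79, 7.46 and 7.14 against 7.75, 7.44 and 8.58, a difference of -0.55 (SE 0.35, adjusted p = 0.82). The 6 other E2F genes differed by -0.12 to 0.22. E2f2, an activator, was the only one of the 8 whose groups did not overlap, at 5.61 to 5.87 in the knockout and 5.48 to 5.57 in wild type (difference 0.22, SE 0.12, adjusted p = 0.76). Fitted with no term for the normalization runs, which lets the other wild-type arrays into the control, its difference was -0.28.

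Yae1d1, which codes for a protein of cytosolic iron-sulfur cluster assembly linked to the ribosome recycling factor ABCE1, lies on chromosome 13 at 17986640 to 17993351 (GRCm38.p6). Its signal was 8.35, 8.37, 8.33 and 8.27 in the knockout and 7.63, 7.62 and 7.84 in wild type. The groups did not overlap, and the difference was 0.63 (SE 0.10, a 1.55-fold difference, limma adjusted p = 0.0111). The other probe sets of the gene did not give the same picture. One was higher in the knockout by 0.31 (SE 0.11) and another differed by -0.31 (SE 0.10), neither past the test over all probe sets (adjusted p = 0.68 and 0.59), and with the mean of the 3 probe sets the difference was 0.21 (adjusted p = 0.52). The call was lost without wild-type replicate 1 (adjusted p = 0.19) or 2 (0.14), and without knockout replicate 1 (0.062) or 2 (0.071), with the difference at 0.59 to 0.62. With wild-type replicate 3 as the only control it was 0.49 (adjusted p = 0.59), and with the replicate number as a block 0.62 (adjusted p = 0.10). With no term for the normalization runs, which adds the other wild-type arrays to the control, it was 0.11 (adjusted p = 0.74). Yae1d1 was also higher than wild type in the arrays labelled E2f8 knockout (0.68) and E2f7/E2f8 knockout (0.69) at 2 months, comparisons that use the same wild-type arrays, and in the E2f7 knockout at 3 weeks (0.61, SE 0.10, adjusted p = 0.0066). In the left-out wild-type arrays of the other run it read 9.05 and 8.96, above every knockout array, on a scale set by another normalization.

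**Figure D2:**
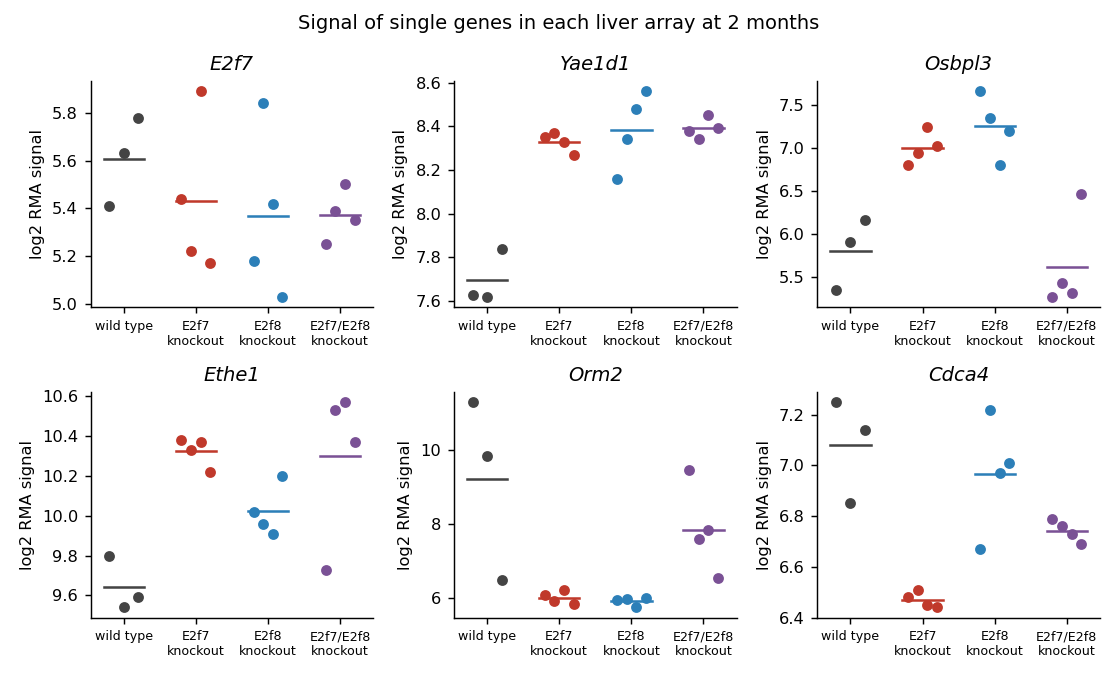
Log2 RMA signal of 6 genes in each array of the 4 groups of the same run at 2 months, with points for arrays and a line for the group mean, and a y axis that does not start at 0. Yae1d1 is higher in all 3 knockouts than in wild type, Osbpl3 is at 6.80 or above in both single knockouts and at 6.47 or below in the other groups, Cdca4 has its lowest mean in the E2f7 knockout, and Orm2 is high in wild-type replicates 1 and 2 but not 3.

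Among genes whose groups did not overlap, the 9 with the next lowest p on the higher side did not pass the test. Osbpl3, an oxysterol-binding protein, read 6.80, 6.94, 7.24 and 7.02 in the knockout and 5.35, 5.91 and 6.16 in wild type, a difference of 1.19 (SE 0.23, adjusted p = 0.063). Ethe1, a mitochondrial sulfur dioxygenase that detoxifies hydrogen sulfide, read 10.38, 10.33, 10.37 and 10.22 against 9.80, 9.54 and 9.59 (difference 0.68, SE 0.14, adjusted p = 0.13). For both genes the lowest knockout array stood more than 0.4 above the highest wild-type array. The growth arrest gene Gas1 differed by 0.74 and the aldo-keto reductase Akr1c19 by 0.96. Acsl5, a long-chain acyl-CoA synthetase, differed by 0.42, and the transporter Slc47a1, which exports organic cations, by 0.45. Hal, which starts histidine breakdown in periportal hepatocytes, differed by 0.49. Als2cl differed by 0.60. Gdpd3, a lysophospholipase D, read 10.06, 10.04, 10.03 and 9.75 in the knockout and 7.98, 7.54 and 9.71 in wild type, so its difference of 1.56 (SE 0.36) rested on wild-type replicates 1 and 2. These 7 genes had adjusted p-values of 0.14 to 0.17.

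On the lower side, none of the 10 genes with the lowest p passed. Orm2, which codes for the plasma acute phase protein orosomucoid, is described with its list below. Cdca4, a nuclear protein whose gene is a known E2F target, read 6.48, 6.51, 6.45 and 6.44 in the knockout against 7.25, 6.85 and 7.14 (difference -0.61, SE 0.13, adjusted p = 0.13). The 4 knockout arrays spanned 0.07 and lay below all wild-type arrays. Eif4ebp1, a repressor of cap-dependent translation, read 10.69, 10.58, 10.84 and 10.48 against 11.03, 11.18 and 10.96 (difference -0.41, SE 0.09, adjusted p = 0.14). Dnajc12, a co-chaperone of aromatic amino acid hydroxylases, differed by -0.79 and the protein disulfide isomerase Pdia5 by -0.41. Asb13 differed by -0.56. Also among the 10 were 3 zinc finger genes of chromosome 7, Zfp719 (-0.73), Zfp383 (-0.53) and Zfp790 (-0.54). The last was Gt(ROSA)26Sor, the transcript of the ROSA26 locus, at -0.68. Of the 72 genes with an unadjusted p under 0.001 (0.396% of those tested), chromosome 13 held 9 of its 705 genes (1.28%) and chromosome 7, 10 of its 1420 (0.704%). Those on chromosome 13 included Yae1d1, Gas1, Akr1c19 and Asb13, and 5 of the 9 were higher in the knockout. E2f7 itself lies on chromosome 10, at 110745439 to 110787384, where 3 of 865 genes had such a p.

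Genes of the unfolded protein response and of the integrated stress response were lower together. Of 25 measured genes, 22 were lower in the knockout, none was called, and 18 (72.0%) were lower at an unadjusted p under 0.05, against 3.26% of all genes. None was higher at that level, and 16 had every knockout array below every wild-type array, against 4.18% of all genes. The median difference of the list was -0.35, with a lowest adjusted p of 0.26. The mean of the 25 genes was 9.82, 9.89, 9.91 and 9.83 in the knockout arrays and 10.29, 10.30 and 10.32 in wild type. The spread within each group, an SD of 0.04 and 0.01, was smaller than the gap between them, but it comes from 4 and 3 arrays. Other groups of the same run varied more, at 9.95 to 10.18 in the E2f8 knockout arrays and 10.14 to 10.59 in the E2f7/E2f8 knockout arrays.

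The chaperones of the endoplasmic reticulum come first. Hspa5, which codes for BiP, the main lumenal chaperone and sensor partner of the response, read 12.97, 13.03, 12.99 and 12.79 in the knockout and 13.33, 13.27 and 13.53 in wild type (difference -0.43, SE 0.16, adjusted p = 0.51). Every knockout array was below every wild-type array. Hsp90b1, the lumenal HSP90, read 12.00, 12.11, 12.17 and 11.82 against 12.45, 12.25 and 12.33, with no overlap (difference -0.32, SE 0.12, adjusted p = 0.50). Among co-chaperones, Dnajb11 differed by -0.56, Dnajb9 by -0.66 and Dnajc3 by -0.35, and Sdf2l1, which works with Dnajb11, by -0.83. The disulfide isomerases Pdia4 and Pdia6 differed by -0.33 and -0.27, the former with overlapping groups, and the lectin chaperone Calr, whose groups overlapped, by -0.16. Creld2, a disulfide isomerase induced by endoplasmic reticulum stress, had the widest gap of the list, at 9.93, 9.78, 9.57 and 9.38 against 10.91, 10.96 and 11.90 (difference -1.59, SE 0.44, adjusted p = 0.26). Manf, a secreted factor released on stress, differed by -0.57, and Herpud1, which takes part in the degradation of misfolded proteins, by -0.62. The degradation genes Edem1 and Sel1l differed by -0.23 and -0.29, the latter with overlapping groups.

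The transcription factors of the response were less alike. Atf4, the central factor of the integrated stress response, read 10.71, 10.90, 10.94 and 10.86 in the knockout and 11.04, 10.96 and 11.28 in wild type (difference -0.24, SE 0.11). Ddit3, which codes for the pro-apoptotic factor CHOP, differed by -0.71, and its groups did not overlap. Atf5 read 10.72, 10.56, 10.86 and 10.82 against 11.83, 11.54 and 10.90 (difference -0.68, SE 0.19, adjusted p = 0.26), with wild-type replicate 3 just above the knockout. Xbp1, whose transcript is spliced when the sensor IRE1 is active, differed by -0.17, and Atf3 by -0.18 with overlapping groups. Among ATF4 targets, the glutathione-degrading Chac1 (-0.998) and the asparagine synthetase gene Asns (-0.64) were high in wild-type replicates 1 and 2, while replicate 3 lay among the knockout arrays. Trib3, Sesn2 and Vldlr differed by 0.02, 0.01 and 0.14.

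**Figure D3:**
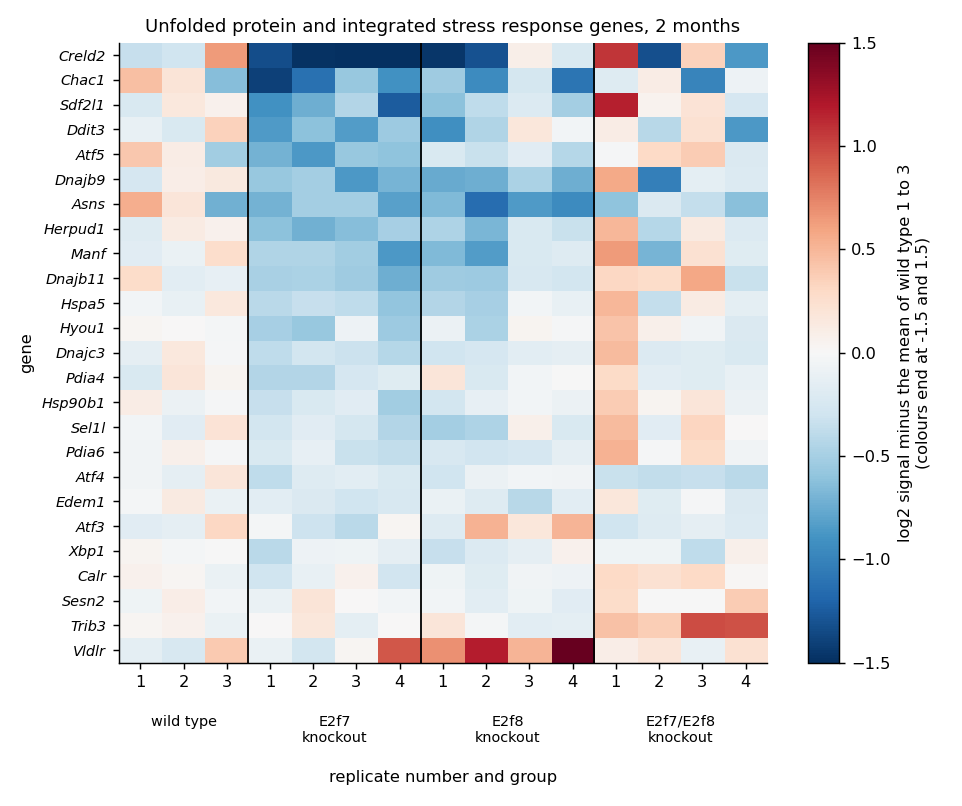
Log2 signal of the 25 genes of the unfolded protein and integrated stress response (rows) in the 15 arrays of the run (columns), each minus the mean of wild-type replicates 1 to 3, with blue for lower and red for higher. The 4 E2f7 knockout columns are blue for most rows, the E2f8 knockout columns are paler, and the E2f7/E2f8 knockout columns are mixed, with replicate 1 red.

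Some of these genes, 6 of 23, hold a promoter element named for the response to endoplasmic reticulum stress. Genes of that response make up much of the list, so the match is no independent result. The endoplasmic reticulum stress response element (ERSE) is the motif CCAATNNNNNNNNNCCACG, bound through NF-Y and ATF6, and was searched on both strands from 250 bases before to 50 after the RefSeq transcription start. It was present in 6 of the 23 list genes with a window (26.1%), Hspa5, Hsp90b1, Pdia6, Dnajc3, Creld2 and Calr, against 37 of all 27025 genes with a window (0.137%) and 20 of the 14452 on the arrays (0.138%). All 6 were lower in the knockout, 5 of them at an unadjusted p under 0.05, with a median difference of -0.34. These genes are already counted in the list result above. A match is a description of the sequence and no evidence of binding in these livers. The 100 bases around the element are shown for the main chaperone, the gene with the widest gap and a disulfide isomerase, from RefSeq (GRCm38.p6), 5′ to 3′ on the gene's strand, with the element in capitals.
Hspa5, chr2:34771984-34772083, plus strand: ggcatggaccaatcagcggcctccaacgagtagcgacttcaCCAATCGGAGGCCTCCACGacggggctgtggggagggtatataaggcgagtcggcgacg
Creld2, chr15:88819479-88819578, plus strand: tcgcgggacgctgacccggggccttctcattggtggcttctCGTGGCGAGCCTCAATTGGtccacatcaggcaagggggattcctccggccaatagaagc
Pdia6, chr12:17266450-17266549, plus strand: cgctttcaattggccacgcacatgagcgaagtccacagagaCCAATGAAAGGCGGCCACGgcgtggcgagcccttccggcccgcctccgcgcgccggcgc
The element lies 65 to 47 bases before the start in Hspa5 and 98 to 80 before it in Pdia6. In Creld2 it lies on the opposite strand, 126 to 108 bases before the start.

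Heat shock genes, most of them for cytosolic chaperones, were lower as well. All 13 measured genes were lower in the knockout, none was called, 5 (38.5%) were lower at an unadjusted p under 0.05, against 3.26% of all genes, and 8 had every knockout array below wild type, against 4.18% of all genes. The median difference was -0.45. Hspa1b, the inducible HSP70, read 11.01, 11.05, 9.77 and 11.33 in the knockout and 12.17, 11.93 and 12.13 in wild type (difference -1.29, SE 0.45, adjusted p = 0.48). Hspa1a, its neighbouring near-identical copy, read 8.75, 8.98, 7.38 and 9.0 against 9.92, 9.99 and 10.20, and signal may be shared between the copies. Knockout replicate 3 was the lowest array for both, and the list mean was 10.07 in it and 10.67 to 10.88 in the other 3 knockout arrays, against 11.05 to 11.37 in wild type. Without that array 12 of 13 genes were lower, the median was -0.29 and 1 gene was at an unadjusted p under 0.05. The co-chaperones Bag3 and Dnajb1 differed by -0.81 and -0.77, and the HSP90 gene Hsp90aa1 by -0.45, each without overlap. The mitochondrial chaperonin genes Hspd1 and Hspe1 differed by -0.05 and -0.17 with overlapping groups. In the left-out wild-type arrays of the other run the list mean was 9.93 and 11.02, on a scale set by another normalization. The first of these was below every knockout array. With no term for the normalization runs the difference of Hspa1a turned to 0.27.

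Acute phase genes were lower on average, but the wild-type arrays were split. These genes code for plasma proteins that hepatocytes secrete after inflammatory signals. All 22 measured genes had a lower mean in the knockout, against 40.8% of all genes, with a median difference of -0.36. At an unadjusted p under 0.05, 13 (59.1%) were lower, against 3.26% of all genes, and none was called. Saa2, a serum amyloid A gene, read 8.72, 8.53, 9.19 and 8.46 in the knockout and 13.28, 13.33 and 8.72 in wild type. Lcn2, an iron-sequestering protein, read 7.04, 6.41, 7.47 and 6.31 against 11.70, 11.64 and 6.52. Orm2 read 6.08, 5.93, 6.22 and 5.84 against 11.28, 9.82 and 6.50 (difference -3.18, SE 0.59, adjusted p = 0.063). In each of these genes wild-type replicates 1 and 2 were high, and replicate 3 lay within or just above the knockout arrays. With replicate 3 as the only control, 11 of the 22 genes were higher and 11 lower, the median difference was -0.01 and none was at an unadjusted p under 0.05. The neutrophil genes S100a8 and S100a9 followed the same arrays, at 6.54 and 6.26 for S100a8 in wild-type replicates 1 and 2, 4.76 in replicate 3 and 4.74 to 5.22 in the knockout. Of 11 neutrophil markers 4 were lower, among them S100a8, S100a9 and again Lcn2, and 7 were higher, with a median of 0.03. Mpo (0.17), Elane (0.0037) and Mmp8 (0.19) were not lower. The list mean, which includes Lcn2, was 6.41, 6.43 and 5.58 in wild type and 5.73 to 5.80 in the knockout. The part of this in the acute phase result was not tested.

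As a list, the stress response genes were lower against each side of that split, but 1 side is a single array. Members such as Chac1, Asns and Atf5 were higher in wild-type replicates 1 and 2 than in replicate 3. With wild-type replicate 3 as the only control, chosen after seeing the data, 22 of the 25 unfolded protein and integrated stress response genes were lower. Their median was then -0.37. Without replicate 3, 24 were lower, 13 at an unadjusted p under 0.05, with a median of -0.35. With replicate 3 as the only control the heat shock median was -0.53 with 13 of 13 lower. In the E2f7/E2f8 knockout replicate 1 had the highest mean of both lists, 12.21 for acute phase and 10.59 for stress response genes. In the E2f8 knockout arrays these means were 10.96 to 11.06 and 9.95 to 10.18. A relation between the 2 lists was not tested.

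**Figure D4:**
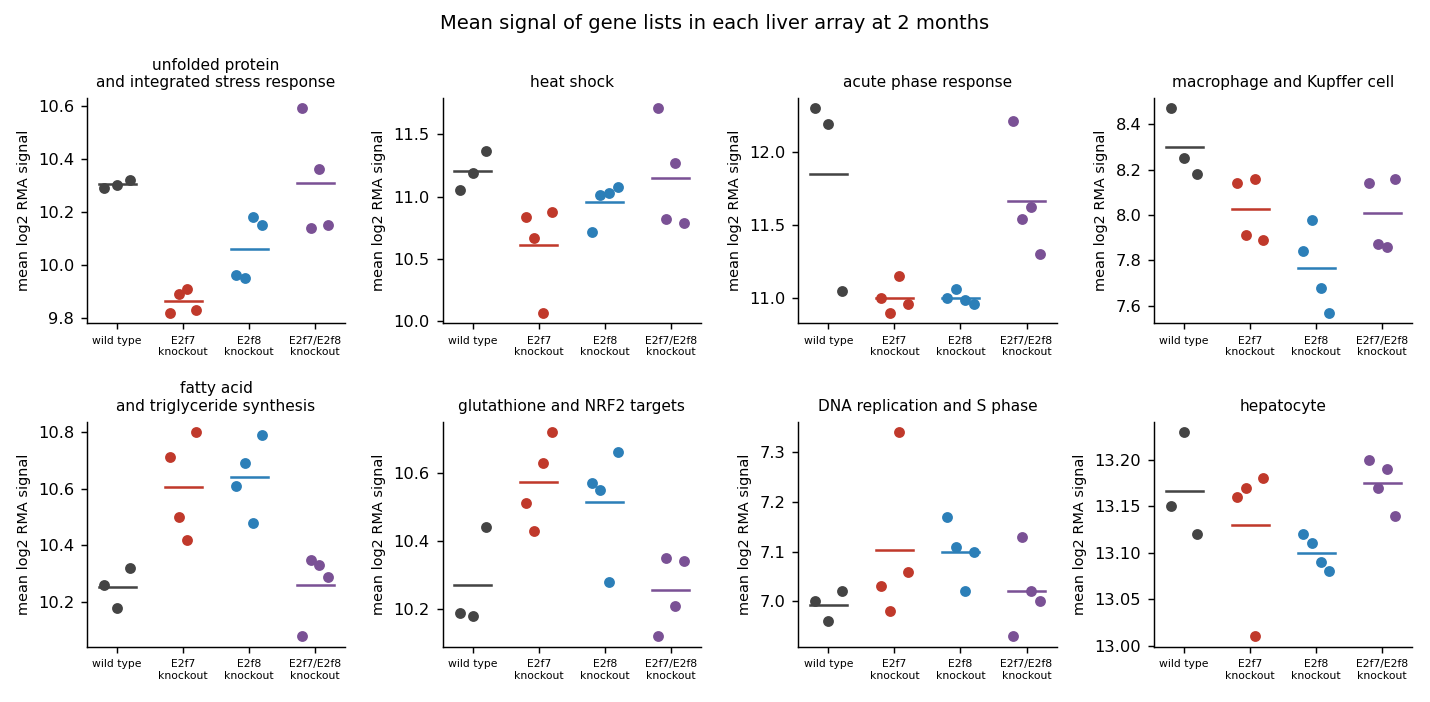
Mean log2 RMA signal of 8 gene lists in each of the 15 arrays of the run, with points for arrays, a line for each group mean and y axes that do not start at 0. The unfolded protein response separates the E2f7 knockout from the 3 other groups, and the acute phase list splits the wild-type arrays.

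Macrophage markers were lower in the knockout. Of 19 genes 16 were lower, with a median of -0.34 and none called. At an unadjusted p under 0.05, 7 (36.8%) were lower, against 3.26% of all genes. The list mean was 8.14, 7.91, 8.16 and 7.89 in the knockout and 8.47, 8.25 and 8.18 in wild type, so that the closest arrays of the groups were 0.02 apart. C1qb, a complement subunit made by Kupffer cells, read 8.95, 8.64, 8.71 and 8.54 against 9.38, 9.29 and 9.06 (difference -0.54, SE 0.19, adjusted p = 0.46). Cd5l differed by -0.53, the receptor gene Csf1r by -0.32 and Clec4f, which marks Kupffer cells, by -0.34, each with overlapping groups. Without wild-type replicate 1 or 2, 1 and 2 of the genes were at that level. With wild-type replicate 3 as the only control the median was -0.20 and none was at an unadjusted p under 0.05. The macrophage list was lower in the other knockouts of the run too. Against the same wild-type arrays its median was -0.60 in the arrays labelled E2f8 knockout and -0.28 in the E2f7/E2f8 knockout. For the E2f7 knockout minus each of these groups the median was 0.29 and 0.0051. In tissue RNA, fewer cells of a type and less RNA per cell cannot be told apart. Medians were smaller for other cell types: 0.04 for 24 sinusoidal endothelial genes, 0.08 for 19 stellate cell and fibroblast genes, 0.06 for 19 lymphocyte genes, 0.04 for 9 cholangiocyte genes and 0.10 for 12 erythroid genes. Of these lists none had more than 2 genes at an unadjusted p under 0.05. For erythroid genes there were 2 of 12, both higher, among them the transferrin receptor gene Tfrc (difference 0.66, SE 0.27, limma adjusted p = 0.59).

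Genes of lipid synthesis had higher signal. Of 25 measured genes of fatty acid and triglyceride synthesis 22 were higher in the knockout, with a median of 0.41. Of them 6 (24.0%) were higher at an unadjusted p under 0.05, against 3.77% of all genes, and none was called. Acss2, which makes cytosolic acetyl-CoA from acetate, read 11.48, 11.22, 11.27 and 11.44 against 10.56, 10.35 and 10.30 (difference 0.95, SE 0.28, adjusted p = 0.31). Elovl5, a fatty acid elongase, read 13.10, 13.07, 12.91 and 13.42 against 12.67, 12.49 and 12.82 (difference 0.47, SE 0.15, adjusted p = 0.40). Acacb, the mitochondrial acetyl-CoA carboxylase, differed by 1.09 and the acyltransferase gene Gpam by 0.44, also without overlap. Fasn, the fatty acid synthase gene, was variable, at 12.22, 11.41, 11.06 and 12.34 against 11.14, 10.51 and 10.70. Srebf1, the transcription factor that drives the pathway, differed by 0.52 with overlapping groups. The list mean was 10.42 to 10.80 in the knockout and 10.18 to 10.32 in wild type. With wild-type replicate 3 as the only control the median was 0.22. Cholesterol synthesis genes were higher in 19 of 20 cases, against 59.2% of all genes, with a median of 0.25. Of them 3 were higher at an unadjusted p under 0.05 (Ebp, Tm7sf2 and Sc5d). Their list mean overlapped, at 10.67 to 10.90 in the knockout and 10.71, 10.60 and 10.11 in wild type, where replicate 3 was lowest.

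Detoxification genes were higher too, with the wild-type arrays again unequal. Of 24 genes of glutathione metabolism and NRF2 targets 19 were higher, with a median of 0.28 and none called. At an unadjusted p under 0.05, 10 (41.7%) were higher, against 3.77% of all genes. All 10 were glutathione S-transferases, enzymes that join glutathione to reactive compounds. Gstm1 read 13.71, 13.66, 13.75 and 13.87 in the knockout and 13.31, 13.33 and 13.60 in wild type (difference 0.33, SE 0.08, adjusted p = 0.19). Gstm6, Gstt3 and Gstm3 differed by 0.61, 1.16 and 0.58, each without overlap. These are close relatives, and probes may read more than 1 of them. Without wild-type replicate 2, 6 of the list were at that level. Hmox1, a classical NRF2 target, differed by -0.30. With wild-type replicate 3 as the only control the list median was 0.07, and with no term for the normalization runs it turned to -0.035. Of 30 cytochrome P450 and xenobiotic metabolism genes 28 were higher, against 59.2% of all genes, with a median of 0.13. At an unadjusted p under 0.05, 10 (33.3%) were higher, against 3.77% of all genes. Cyp2c54 read 11.69, 11.80, 11.91 and 11.94 against 11.02, 10.49 and 11.99, where wild-type replicate 3 was above every knockout array. With that array as the only control the median was 0.03, and without replicate 2 the count was 3. Nr1i3, the nuclear receptor CAR that controls such genes, read 10.86, 10.90, 11.18 and 10.84 against 10.61, 10.25 and 10.75 (difference 0.41, SE 0.17).

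Amino acid and urea cycle genes were higher by smaller amounts. Of 32 genes 24 were higher, against 59.2% of all genes. At an unadjusted p under 0.05, 8 (25.0%) were higher, against 3.77% of all genes. For 11 every knockout array lay above wild type, against 5.50% of all genes. The median was 0.13. Hal read 11.42, 11.27, 11.26 and 11.37 in the knockout and 10.85, 10.80 and 10.87 in wild type, and Shmt1, which moves 1-carbon units to folate, differed by 0.32. The urea cycle genes Otc, Arg1 and Asl differed by 0.13, 0.16 and 0.28. Bhmt, a methyltransferase of homocysteine, differed by 0.50 with overlapping groups. For bile acid genes 18 of 22 were higher with a median of 0.09, Akr1d1 (0.55) and Acox2 (0.46) at the lowest p. Respiratory chain genes were higher in 25 of 29 cases with a median of 0.07. With no term for the normalization runs the medians turned to -0.062 for amino acid, -0.047 for bile acid and -0.086 for respiratory chain genes.

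The genes for which E2F7 is best known differed little. Of 56 DNA replication genes 41 were higher in the knockout, with a median of 0.09 (59.2% of all genes were higher), and 4 (7.14%) were higher at an unadjusted p under 0.05, against 3.77% of all genes. None was called. Tk1, the thymidine kinase gene, read 10.29, 10.19, 10.10 and 10.18 against 9.53, 9.90 and 10.01 (difference 0.38, SE 0.14, adjusted p = 0.53), and its groups did not overlap. Rrm2, the regulated subunit of ribonucleotide reductase, read 7.41, 7.22, 7.47 and 6.91 against 6.88, 6.50 and 6.32 (difference 0.69, SE 0.28, adjusted p = 0.57), without overlap. Mcm6, a subunit of the replicative helicase, read 7.10, 6.64, 8.14 and 6.91 against 5.78, 5.53 and 6.74 (difference 1.18, SE 0.45), with 1 knockout array below wild-type replicate 3. Orc1 differed by 0.23, and Rnaseh2a, which removes RNA from DNA, differed by -0.25. Knockout replicate 3 was the highest array of the list, with a mean of 7.34 against 6.98 to 7.06 in the other 3 knockout arrays and 6.96 to 7.02 in wild type. Without it 30 of the 56 genes were higher, against 58.7% of all genes, with a median of 0.02. With no term for the normalization runs 27 were higher, against 51.7% of all genes, with a median of -0.0044. Of 67 mitosis genes 55 were higher with a median of 0.07, 1 of them at an unadjusted p under 0.05, the kinetochore gene Spc24 (difference 0.55, SE 0.19, adjusted p = 0.46). The list means were 5.59 to 5.76 in the knockout and 5.54 to 5.62 in wild type. Cyclins and their kinases and inhibitors (25 genes) had a median of 0.03, DNA repair genes (30) 0.05 and p53 targets (25) of -0.0026. In the cyclin list Ccne2 differed by -0.44 and Ccne1 by -0.17, each without overlap. In the repair list Ung, which removes uracil from DNA, read 7.55, 7.65, 7.82 and 7.72 against 8.14, 8.15 and 8.63 (difference -0.62, SE 0.19, adjusted p = 0.34).

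Promoters of replication genes held E2F sites more often than those of all genes. The motifs TTTCCCGC, TTTGGCGC, TTTCGCGC and TTTGCCGC were searched on both strands in the same windows and were present in 17 of 46 replication genes (37.0%), against 704 of all 27025 genes (2.60%) and 550 of the 14452 on the arrays (3.81%). Of these 17 genes 15 were higher in the knockout, against 59.2% of all genes, with a median of 0.16. At an unadjusted p under 0.05, 2 of them were higher, against 3.77% of all genes. The 17 belong to the list above, most of whose lean rested on knockout replicate 3, also the highest array for Mcm6. Mcm6, the gene of this list with the widest difference, holds 3 sites in 100 bases, of which the first 2 overlap on opposite strands, and E2f7 holds 1 in its own promoter. Sites are in capitals, with the sequences from RefSeq (GRCm38.p6) as above.
Mcm6, chr1:128359731-128359830, minus strand: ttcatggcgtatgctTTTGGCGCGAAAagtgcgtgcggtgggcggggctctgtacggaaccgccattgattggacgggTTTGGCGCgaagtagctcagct
E2f7, chr10:110745195-110745294, plus strand: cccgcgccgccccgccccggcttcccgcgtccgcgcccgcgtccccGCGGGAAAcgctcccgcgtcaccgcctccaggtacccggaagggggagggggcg
Neither motif family was found in the windows of Yae1d1 or Osbpl3.

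Further lists held no member called, and some held several past an unadjusted p under 0.05. Of 24 immediate early and growth factor genes, which respond within minutes to stimuli, 20 were lower with a median of -0.25, but 1 was lower and 1 higher at that level. Of 26 hepatocyte markers 12 were higher and 14 lower, with a median of -0.03. At that level 4 of them (15.38%) were lower, against 3.26% of all genes, and 1 was higher. Zonation markers leaned higher on both sides of the lobule. At that level 4 of 14 periportal (28.57%) and 3 of 17 pericentral genes (17.65%) were higher, against 3.77% of all genes. Their medians of 0.09 and 0.13 turned to -0.049 and -0.085 with no term for the normalization runs. Medians were 0.06 for 27 PPAR alpha targets and -0.0097 for 24 gluconeogenesis, glycolysis and insulin response genes. For 25 interferon genes the median was -0.07, and for 13 genes of MHC class II and antigen presentation, some of them class I genes, -0.04. They were -0.01 for 22 clock genes, 0.03 for 19 hypoxia genes and -0.05 for 19 ribosomal protein genes. Sex is not given in the labels. The median was -0.0064 for 18 male-biased and 0.13 for 24 female-biased liver genes. Fetal liver, pancreatic acinar and adipocyte genes, which would show progenitors or neighbouring tissue, had medians of 0.04, 0.09 and 0.10. Of 13 fetal liver genes 2 (15.38%) were higher at an unadjusted p under 0.05, and no gene of the acinar and adipocyte lists was.

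No gene passed the test of a different response to E2f7 loss at the 2 ages. For the knockout effect at 2 months minus that at 3 weeks, limma called 0 of 18193 genes (0.00%), with a lowest adjusted p of 0.17 and 1249 genes at an unadjusted p under 0.05. Without wild-type replicate 3 of 2 months, 9 genes were called. The ages were normalized in separate runs, so each effect was taken within its own run. At 3 weeks the groups overlapped in stress response genes: the list mean was 9.44 to 9.65 in the knockout and 9.37 to 9.59 in wild type, and the median difference was 0.07 at 3 weeks and -0.35 at 2 months. Of the 25 genes 22 had a lower effect at 2 months, 7 of them at an unadjusted p under 0.05 (2.79% of all genes), with a median change of -0.41. Heat shock genes had a median of 0.10 at 3 weeks and -0.45 at 2 months, and the effects of 3 of 13 were lower at an unadjusted p under 0.05. Replication genes had a median of 0.23 at 3 weeks and 0.09 at 2 months, and mitosis genes 0.24 and 0.07. Macrophage genes had medians of -0.37 and -0.34 at the respective ages, and fatty acid synthesis genes 0.30 and 0.41. Cytochrome P450 genes had -0.20 at 3 weeks and 0.13 at 2 months.

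The E2f7 knockout was then compared with the arrays labelled E2f8 knockout, with no wild-type array in the comparison. The label could not be checked by the targeted gene, since E2f8 read 9.65, 10.01, 10.56 and 10.30 in those arrays, above wild type. Its probes may lie outside the deleted part. Between the groups 14 genes (0.0770%) passed the test, 9 higher and 5 lower in the E2f7 knockout, and 4 to 9 passed when each E2f7 knockout array was left out (9, 4, 7 and 9 without replicates 1 to 4). With only the arrays of this run in the fit 19 passed. On the higher side were B4galnt1 (2.98, SE 0.62, adjusted p = 0.046), a ganglioside synthase, Trhde (1.73, SE 0.19, adjusted p = 1.05e-05), a peptidase of thyrotropin-releasing hormone, and Pcsk6 (1.15, SE 0.17, adjusted p = 0.000597), a proprotein convertase. Gm2788, a predicted gene that overlaps the start of E2f8 and was singled out after its value was seen, was also higher, by 2.72. On the lower side were E2f8 itself (-2.75), Clec2d (-1.53) and Zfp30 (-1.08). Of the 14 genes, 6 lay on chromosome 7, which holds E2f8 and 7.81% of the genes tested, and 4 lay on chromosome 10, which holds E2f7 and 4.75%. The 4 were Trhde, B4galnt1, Rassf3 and Lum. Between the E2f7 knockout and wild type Trhde differed by 0.12 and Pcsk6 by 0.31, neither past the test. Stress response genes were lower in the E2f7 than in the E2f8 knockout in 21 of 25 cases, with a median of -0.16, and 4 were so at an unadjusted p under 0.05 (2.64% of all genes), none called. The list mean in the E2f8 arrays was 9.96, 9.95, 10.18 and 10.15, each above all 4 E2f7 knockout arrays. Osbpl3 was as high there, at 6.80 to 7.66.

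The E2f7 knockout was also set against the loss of both genes. Here 43 genes (0.236%) passed, 21 higher (0.115%) and 22 lower (0.121%) in the E2f7 knockout. Without replicates 1 to 4 of the E2f7 knockout in turn, 15, 5, 23 and 6 passed, and 4 with only the arrays of this run in the fit. In this contrast, which uses no wild-type array, 4 of the 25 stress response genes were lower than in the double knockout past the test, namely Sdf2l1, Dnajb11, Calr and Atf5, and 17 were lower at an unadjusted p under 0.05 (4.21% of all genes). The list median was -0.45. Sdf2l1 differed by -1.13 and Atf5 by -0.80 (limma adjusted p = 0.040 and 0.041). Outside the list Pdia5 was also lower (adjusted p = 0.021), as was Fgl1, a hepatocyte-secreted fibrinogen-like protein, at -1.59 (SE 0.32, adjusted p = 0.026). Interferon-induced genes formed another group on the lower side, with Usp18 at -1.59 (SE 0.31, adjusted p = 0.021) and with Ifit1, Irf7 and Mx2, 4 of 25 listed genes. E2f8 differed by -1.88. On the higher side were Osbpl3 (1.38, SE 0.21, adjusted p = 0.0015), Pparg (1.14, SE 0.17, adjusted p = 0.0015), the adipogenic nuclear receptor, and Fitm1 (1.08, SE 0.23, adjusted p = 0.041), which takes part in lipid droplet formation. Gm2788 was higher by 2.78. Pparg read 7.21 to 7.57 in the E2f7 knockout, and against wild type its difference was 0.68 (SE 0.18, adjusted p = 0.22). Of 24 glutathione and NRF2 genes, Gstt1 and Gsta4 were higher past the test and 12 at an unadjusted p under 0.05, against 4.01% of all genes. Acute phase genes, higher in the double knockout (list means 12.21, 11.54, 11.62 and 11.30 against 10.90 to 11.15), were lower in the E2f7 knockout in 21 of 22 cases, none called. Fgl1 followed the acute phase arrays too, at 11.04 to 11.68 in the E2f7 knockout and 13.51, 13.83 and 11.17 in wild type.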

How the data were processed

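Liver RNA was hybridised to Affymetrix arrays, 1 sample each. Per the submitters' processing notes the authors normalized them with RMA, and the deposited values are log2 signals. The sources used here do not give its version. Sorted values showed 3 separate normalization runs: 15 arrays of 2 months (among them the E2f7 knockout and wild-type replicates 1 to 3), 5 others of 2 months, and 15 of 3 weeks. Mean gaps between sorted values were at most 0.033 within a run. They were 0.122 between the 2 runs of 2 months and 0.801 between the first run and the 3-week run. Single pairs of arrays differed by up to 0.078 within a run and by 0.096 to 0.169 between the 2 runs of 2 months. Of 45101 probe sets 34945 had 1 gene symbol in the platform annotation, 932 several and 9160 none, and 64 were controls. Of the named probe sets 34741 matched the reference by Entrez ID. Each of 18193 genes was represented by its brightest probe set, judged on the mean of the 35 arrays.

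limma 3.58.1 in R 4.3.3 fitted group means and a term for the second run over all arrays (25 residual degrees of freedom), with moderated variances following an intensity trend. This pools the spread of all groups, including an E2f1/E2f2/E2f3 knockout not described here. p-values were adjusted by Benjamini-Hochberg over all genes. No more than 0.184% of values were identical between any 2 arrays. The fit was tested on simulated data. The same replicate numbers did not pair the samples: correlations of deviations from the group means were -0.106, 0.115 and -0.072 for numbers 1 to 3.

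The comparison and the 39 gene lists were chosen with earlier results of these data known. Genes were named by lowest p among those whose groups did not overlap (10 per direction), with the 2 lowest p per list. Other list members were named after their values were seen. Alternatives changed the normalization, probe set choice, filter, variance model, block and arrays used. Figures used matplotlib 3.10.9 in Python 3.11.15.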

Additional observations from a re-analysis of the deposited data

Results flagged for a closer look

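In 67 genes and list means checked for a knockout array far from the other 3, 5 had one, and chance marks about 1 in 20. Gdpd3 read 9.75 in knockout replicate 4 and 10.03 to 10.06 in the others. Replicate 3 accounted for the other 4: its mean was 13.01 for hepatocyte markers (13.16 to 13.18 in the others), 11.5 for periportal markers (11.77 to 11.81), 10.9 for cholesterol synthesis (10.67 to 10.7) and 10.22 for gluconeogenesis, glycolysis and insulin response genes (10.43 to 10.46). It was also the array with the lowest heat shock mean and the highest DNA replication mean of the knockout.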

How the results depend on the processing

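With 4 arrays against 3, single arrays decided counts of calls. The E2f7 knockout against wild type gave 1 called gene, 40 with no term for the runs (Yae1d1 not among them), 3 after quantile normalization, 59 with array weights, 0 with the mean of each gene's probe sets, 0 with the replicate block and 0 to 39 with an array left out. Other settings gave 1, though with wild-type replicate 3 as the only control, chosen after seeing the data, it was not Yae1d1. The age comparison gave 0, 1 with array weights and 0 to 9 with an array left out. The E2f8 knockout comparison gave 14, 4 with no run term, 208 with array weights and 4 to 9 with an array left out. The E2f7/E2f8 knockout comparison gave 43, 4 with only the arrays of the first run, 2 with no run term, 431 with array weights, 20 with robust eBayes and 5 to 23 with an array left out. The replicate block gave 0, 16 and 42 calls in these 3 comparisons. Causes were not tested.

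Signs turned, none of them for a called gene, with no term for the runs in E2f2 (-0.28), E2f5 (-0.21), E2f6 (0.22), E2f8 (0.088), Ethe1 (-0.0015), Hal (-0.048), Cdc20 (-0.040), Otc (-0.051), Aldh3a2 (-0.079), Cftr (-0.071), Cd74 (0.10), Gbp2 (-0.52), Ebp (-0.14), Cyp2c54 (-0.035), Hspa1a (0.27), Cspg5 (0.13), Sdhb (-0.0042) and Uqcrc2 (-0.028). They turned with wild-type replicate 3 as the only control in E2f1 (0.074), E2f5 (-0.027), Aldh3a2 (-0.13), Tie1 (-0.10), Lcn2 (0.29), S100a8 (0.20), Gbp2 (-0.19), Cyp2c54 (-0.15) and Susd4 (-0.17). With the mean of probe sets E2f1 was 0.0595, E2f5 -0.12 and Hgf -0.0012. With median centring E2f4 was -0.0093, with the replicate block E2f5 was -0.0019, and with the probe set brightest over the 7 arrays Uqcrc2 was -0.049. With an array left out E2f1 ranged from -0.043 to 0.040, E2f4 from -0.087 to 0.085 and E2f5 from -0.036 to 0.12. Of the other results for named genes, 1932 kept their direction and side of the threshold, 54 newly passed it and 53 no longer did. List medians moved by less than the spread between replicates in 710 cases and by more in 31.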
